A study of Homo sapiens with 5 samples.

Results

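The HOX genes are the homeobox genes of the 4 human HOX loci, HOXA, HOXB, HOXC and HOXD. All 39 gene rows named HOX followed by A, B, C or D and a number were taken, 39 of 36601 genes: 11 at HOXA, 10 at HOXB, 9 at HOXC and 9 at HOXD. The choice used gene names only and no measured value. To these were added the ATAC peaks at the loci, from the lowest to the highest gene start with 20 kb on both sides, 110 of 158342 peaks. On hg38 these intervals are chr7:27075988-27220091 for HOXA, chr17:48510910-48749178 for HOXB, chr12:53918831-54073835 for HOXC and chr2:176072721-176208668 for HOXD.

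HOX proteins are transcription factors that give cells of the embryo their position along the body axis. Within a locus the genes lie in the order in which they are used from head to tail, so that low numbers (such as HOXA2) are anterior and high numbers (such as HOXD13) are posterior. The loci are classic targets of Polycomb repression and of the trithorax group that opposes it, and many adult cells keep the HOX code of the place they came from. In the lung, HOXA5 and its neighbours are known for their part in lung development.

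The nuclei came from the human lung adenocarcinoma cell lines A549, HCC827, H838, H1975 and H2228. These 5 lines were grown apart without treatment, dissociated, frozen and then mixed before nuclei were loaded on the 10x Multiome assay, which reads RNA and open chromatin (ATAC) from the same nucleus. The GEMs, the droplets that each hold a nucleus, were divided into an 80% and a 20% portion, with 1 RNA and 1 ATAC library each. The labels give the mixture and not the line of any nucleus, so the groups below are clusters of nuclei and no line is assigned to them. The 80% portion carries the results and the 20% portion is set beside it.

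The 80% portion held 6557 nuclei with 95455518 RNA UMIs (unique molecules) and 63920767 ATAC counts, and the 20% portion held 1286 nuclei with 14346346 UMIs and 12850543 ATAC counts. A total of 159 barcodes occurred in both. The 80% nuclei were clustered on RNA after every gene in the HOX intervals was left out, which gave 6 clusters of 328 to 2499 nuclei, each called here by its leading gene: CDH11 (38.1% of nuclei), ALDH1A1 (22.3%), AC069277.1 (22.1%), AL356804.1 (6.76%), CECR2 (5.72%) and EGFR (5.00%). Median depth ran from 9148 UMIs per nucleus in ALDH1A1 to 16732 in AL356804.1, and the share of nuclei called doublets from 0.620% in AC069277.1 to 11.2% in CECR2. Outside its own cluster a leading gene reached 2.45% to 8.09% of its own level in the next cluster and 1.09% to 2.39% in the lowest. How much of this was free RNA from other nuclei was not tested. Of the epithelial markers EPCAM, KRT8, KRT18, KRT19 and CDH1, all 5 were at 5 CPM (counts per 1000000) or more in at least 1 cluster. Their summed level was lowest in AC069277.1 at 1373 CPM, where EPCAM was at 23.8 CPM and CDH1 at 4.86 CPM, and highest in ALDH1A1 at 9208 CPM. Leukocyte markers summed to 13.9 to 46.5 CPM, of which CD68 made up 13.1 CPM in CDH11 and 46.5 CPM in EGFR, with PTPRC at 0.730 CPM or less, endothelial markers to 1.37 to 14.4 CPM, and fibroblast markers to 20.3 to 244 CPM with DCN at 0.0522 CPM or less and LUM at 0.830 CPM or less. Of the fibroblast markers, COL1A1 was highest in CDH11 at 242 CPM, and COL1A2 was at 68.1 CPM in CECR2 and 7.85 CPM or less in the others. The part of these markers in the HOX values was not tested.

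Levels are UMIs summed over the nuclei of a cluster, scaled to CPM of that cluster, with exact Poisson 95% intervals. There was 1 library, and nuclei are not replicates, so these intervals cover counting error only and no test between clusters was possible. A gene is called on in a cluster at 5 CPM or more. It is called different between clusters where the highest cluster is on and at least 4 times the lowest, a cluster under 3 UMIs being set to 3. Differences between clusters that are named below are from the 80% portion.

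HOX RNA was sparse: 12678 UMIs lay on the 39 genes, 0.0133% of the total or 133 CPM. A nucleus held a median of 1 HOX UMI and at most 19. HOXB1, an anterior gene, and HOXD12, a posterior one, had no UMI in any nucleus. By cluster, the summed HOX RNA was highest in AC069277.1 at 251 CPM (95% interval 244 to 258) and in ALDH1A1 at 196 CPM (189 to 203). It was 123 CPM (114 to 134) in EGFR, 83.2 CPM (80.5 to 86.0) in CDH11, 65.5 CPM (59.3 to 72.2) in CECR2 and 54.6 CPM (49.6 to 59.9) in AL356804.1. The intervals of neighbours in this order did not overlap except between CECR2 and AL356804.1. After nuclei called doublets were removed, the lowest values were 49.6 CPM in CECR2 and 49.7 CPM in AL356804.1.

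The share of nuclei with at least 1 HOX UMI ran from 53.3% in CECR2 to 92.8% in AC069277.1 at full depth. After each nucleus was thinned to 5000 UMIs, which left out 101 shallower nuclei, it was 71.5% (exact binomial 95% interval 69.0% to 73.8%) in AC069277.1 and 61.9% (59.3% to 64.4%) in ALDH1A1. It was 40.4% (35.0% to 46.0%) in EGFR, 33.3% (31.5% to 35.2%) in CDH11, 23.2% (19.0% to 27.8%) in CECR2 and 21.4% (17.6% to 25.5%) in AL356804.1. For genes outside the cluster they lead, the share after thinning depended on the gene. AC069277.1 was found in 75.2% of the nuclei of its own cluster and in 0.909% to 5.33% of those of the other clusters, CDH11 in 83.1% and 6.56% to 14.1%, and ALDH1A1 in 99.9% and 31.4% to 38.7%. EGFR was found in 99.7% and 31.6% to 84.4%. How much of these shares, and of the HOX shares, came from free RNA was not tested.

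Of the 39 HOX genes, 22 were on in at least 1 cluster, against 40% of all 36601 genes. By position, 4 of the 12 anterior genes HOX1 to HOX4 were on, 8 of the 11 central genes HOX5 to HOX8, and 10 of the 16 posterior genes HOX9 to HOX13. By locus, 5 of 11 HOXA, 7 of 10 HOXB, 6 of 9 HOXC and 4 of 9 HOXD genes were on. The 17 genes below 5 CPM in every cluster included HOXA2, HOXA4, HOXA6, HOXA9, HOXA11, HOXB1, HOXB2, HOXB13, HOXC4, HOXC5, HOXC12, HOXD1, HOXD4, HOXD8, HOXD12 and HOXD13, of which HOXC5 came nearest at 4.60 CPM in AC069277.1.

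Of the 22 genes that were on, 19 differed between clusters by the 4-fold call, against 35.5% of all genes that were on. HOXC6, HOXC8 and HOXC9 did not. The median ratio of the highest to the lowest cluster was 15.7 for the 22 HOX genes and 2.76 for all genes on. Among the 8942 genes on whose highest level was no more than the largest HOX value, 41.7% differed and the median ratio was 3.19. After doublets were removed 22 genes were again on and 19 differed, against 5775 of the 14763 genes then on over all genes.

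**Figure D1:**
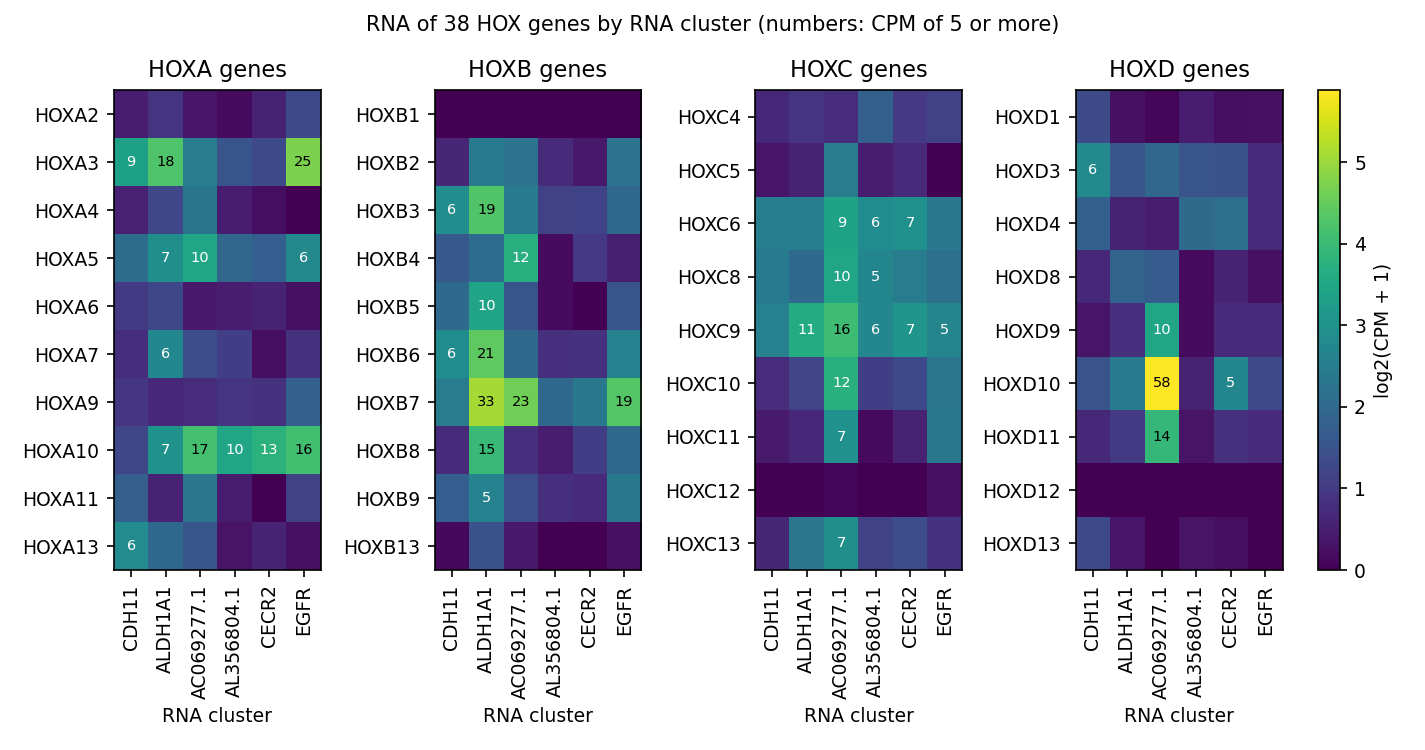
RNA of 38 of the 39 HOX genes (rows, by locus and number) in the 6 RNA clusters (columns) as log2(CPM + 1) by colour, with the CPM printed in cells of 5 or more. HOXD10 at 58 CPM in AC069277.1 is the brightest cell, and the HOXB5 to HOXB9 block is brightest in ALDH1A1.

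The sets of HOX genes that were on differed between clusters, least so between AL356804.1 and CECR2. ALDH1A1 had 11, with HOXA3, HOXA5, HOXA7, HOXA10, HOXB3, HOXB5, HOXB6, HOXB7, HOXB8, HOXB9 and HOXC9. AC069277.1 had 13, with HOXA5, HOXA10, HOXB4, HOXB7, HOXC6, HOXC8, HOXC9, HOXC10, HOXC11, HOXC13, HOXD9, HOXD10 and HOXD11. CDH11 had 5, HOXA3, HOXA13, HOXB3, HOXB6 and HOXD3. EGFR had 5, HOXA3, HOXA5, HOXA10, HOXB7 and HOXC9. AL356804.1 had 4, HOXA10, HOXC6, HOXC8 and HOXC9, and CECR2 had 4, HOXA10, HOXC6, HOXC9 and HOXD10. Without doublets HOXD10 was no longer on in CECR2, which left 3 genes there, and the other 5 sets kept the same genes. CECR2 then differed from AL356804.1 by HOXC8 only. With all nuclei HOXC8 was at 4.66 CPM (3.12 to 6.69) in CECR2 and 5.48 CPM (3.98 to 7.36) in AL356804.1, intervals that overlap and hold the 5 CPM limit. Of the 22 genes, 12 were highest in AC069277.1, 7 in ALDH1A1, 2 in CDH11, 1 in EGFR and none in AL356804.1 or CECR2. How often each cluster was highest over all genes on was not counted, so this is not read as particular to HOX genes. Among the 15 pairs of clusters, the HOX profiles of AL356804.1 and CECR2 were most alike, with a Pearson r of 0.873 over 39 genes on log2(CPM + 1). Those of CDH11 and AC069277.1 were least alike, with an r of 0.343. These values describe clusters of 1 library. The AL356804.1 and CECR2 nuclei formed a single cluster when 5 clusters were asked for.

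Summed over its 10 genes, HOXB RNA was 111 CPM (106 to 117) in ALDH1A1, 51.1 CPM in AC069277.1, 40.5 CPM in EGFR, 26.1 CPM in CDH11, 9.31 CPM in CECR2 and 6.98 CPM (5.27 to 9.06) in AL356804.1. HOXD RNA was 87.6 CPM (83.5 to 91.9) in AC069277.1 and between 4.36 CPM in EGFR and 14.8 CPM in CDH11 elsewhere. The log2 ratio of the highest to the lowest cluster was 4.33 (3.71 to 4.95) for HOXD and 4.0 (3.61 to 4.38) for HOXB. HOXC RNA was 66.2 CPM (62.6 to 70.0) in AC069277.1 and between 16.3 CPM in CDH11 and 26.4 CPM in ALDH1A1 elsewhere, a log2 ratio of 2.02 (1.89 to 2.15). HOXA RNA was at 55.2 CPM in EGFR, 46.7 CPM in ALDH1A1, 46.2 CPM in AC069277.1, 25.9 CPM in CDH11, 19.4 CPM in CECR2 and 18.3 CPM in AL356804.1, a log2 ratio of 1.59 (1.30 to 1.88). That was the lowest ratio of the 4 loci in the 80% portion, whereas in the 20% portion it was 2.46 (1.51 to 3.41) for HOXA and 2.01 (1.70 to 2.32) for HOXC. The 3 highest HOXA clusters had overlapping intervals. With doublets removed the ratio was 5.52 for HOXD and 4.73 for HOXB.

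**Figure D2:**
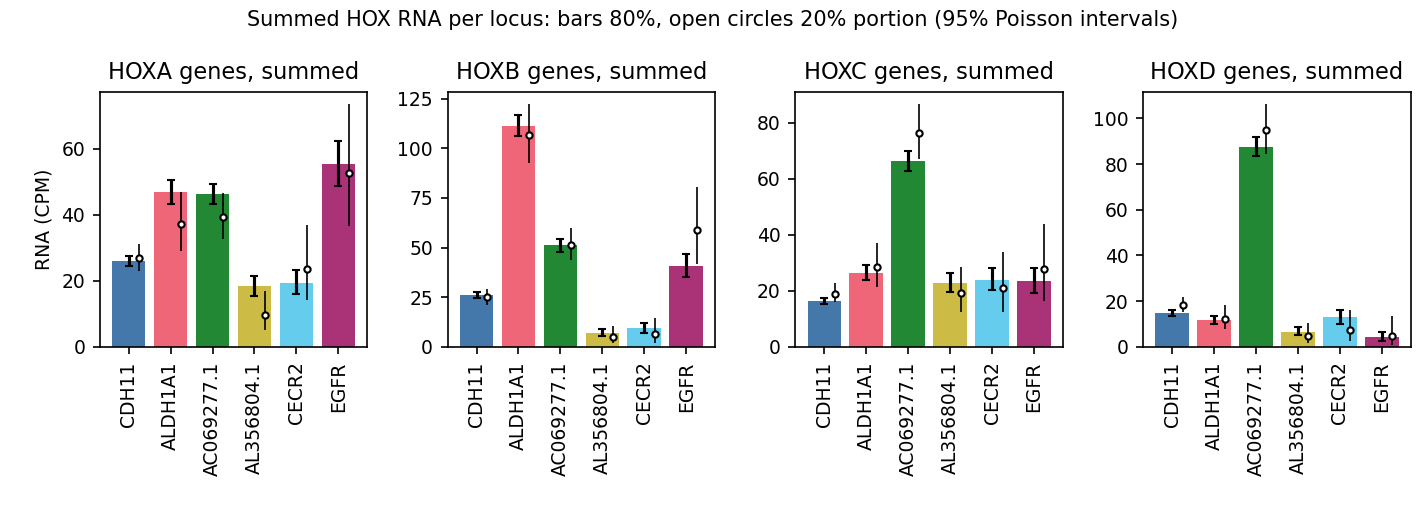
Summed RNA of the HOX genes of each locus (vertical axis, CPM) in the 6 RNA clusters, with 95% Poisson intervals. Bars are the 80% portion and open circles the 20% portion, and in both HOXB is highest in ALDH1A1 and HOXC and HOXD in AC069277.1.

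As a check on dosage, the share of all RNA or ATAC counts on the chromosome of a locus, outside the HOX interval, was set against the mean share over the remaining clusters. As a log2 ratio, over RNA and ATAC together, it ran from -0.54 to 0.47 for chr7 (HOXA), from -0.28 to 0.49 for chr17 (HOXB), from -0.48 to 0.34 for chr12 (HOXC) and from -0.23 to 0.21 for chr2 (HOXD). The lowest and highest values were in AC069277.1 and AL356804.1 for chr7, and in CDH11 and ALDH1A1 for chr17. They were in CECR2 and EGFR for chr12, and in CECR2 and ALDH1A1 for chr2. ALDH1A1, with the most HOXB RNA, thus had the highest chr17 share, while AL356804.1, with the least HOXA RNA, had the highest chr7 share. The part of these chromosome shares in the locus sums was not tested.

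HOXD9, HOXD10 and HOXD11, the HOXD genes known from limb patterning, were on in AC069277.1 and low elsewhere. HOXD10 was at 58.1 CPM (54.7 to 61.6; 1112 UMIs) in AC069277.1, 5.46 CPM in CECR2, 4.27 CPM in ALDH1A1, 1.86 CPM in CDH11, 1.45 CPM in EGFR and 0.499 CPM in AL356804.1. HOXD11 was at 14.1 CPM (12.4 to 15.8) in AC069277.1, 1.02 CPM in ALDH1A1, 0.803 CPM in CECR2, 0.622 CPM in EGFR, 0.565 CPM in CDH11 and 0.249 CPM in AL356804.1. HOXD9 was at 9.98 CPM (8.61 to 11.5) in AC069277.1, 0.745 CPM in ALDH1A1, 0.642 CPM in CECR2, 0.622 CPM in EGFR, 0.259 CPM in CDH11 and 0.125 CPM in AL356804.1. For these 3 genes the interval of AC069277.1 lay above the intervals of the other 5 clusters. With doublets removed HOXD10 stayed at 58.6 CPM in AC069277.1 and was between 0.140 and 0.903 CPM in the others, with CECR2 at 0.398 CPM. After thinning a HOXD10 UMI was found in 24.1% of the nuclei of AC069277.1 and in 0% to 2.67% of those of the other clusters. In the 20% portion HOXD10 was at 59.6 CPM (51.4 to 68.7) in AC069277.1 and at 0 to 4.64 CPM in the others. HOXD3, an anterior gene of the same locus, was highest instead in CDH11, at 5.91 CPM (5.20 to 6.69), and at 0.622 to 2.82 CPM in the others.

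The sequences at the HOXD10 and HOXD11 starts are shown because the highest cluster was the same in RNA and open chromatin for HOXD11 but not for HOXD10. The first 3 sequences below are RefSeq promoter windows on GRCh38.p14, from 250 bases before to 50 bases after an annotated start, and are read in the direction of the gene. They are the windows of HOXD10 at chr2:176116528-176116827 (plus strand), HOXD11 at chr2:176107030-176107329 (plus strand) and HOXA13 at chr7:27200042-27200341 (minus strand). HOXA13 is shown as the HOX window with the most CpG dinucleotides. The last one, on the plus strand of hg38 at chr17:48522203-48522502, is the middle of the HOXB peak with the largest ratio between clusters. Capitals mark CpG dinucleotides, of which these sequences hold 23, 27, 44 and 4.
HOXD10: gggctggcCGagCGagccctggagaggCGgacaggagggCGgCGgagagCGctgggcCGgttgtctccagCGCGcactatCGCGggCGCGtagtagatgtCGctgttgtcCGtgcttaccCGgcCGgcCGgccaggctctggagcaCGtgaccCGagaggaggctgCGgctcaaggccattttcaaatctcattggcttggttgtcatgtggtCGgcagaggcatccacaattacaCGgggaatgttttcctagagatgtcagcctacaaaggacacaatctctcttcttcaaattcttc
HOXD11: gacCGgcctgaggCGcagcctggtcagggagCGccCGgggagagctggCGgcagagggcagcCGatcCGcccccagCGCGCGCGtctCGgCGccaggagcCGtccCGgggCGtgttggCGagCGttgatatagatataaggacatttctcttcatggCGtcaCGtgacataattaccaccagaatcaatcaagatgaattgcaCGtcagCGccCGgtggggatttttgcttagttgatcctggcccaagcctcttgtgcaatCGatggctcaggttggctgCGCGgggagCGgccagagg
HOXA13: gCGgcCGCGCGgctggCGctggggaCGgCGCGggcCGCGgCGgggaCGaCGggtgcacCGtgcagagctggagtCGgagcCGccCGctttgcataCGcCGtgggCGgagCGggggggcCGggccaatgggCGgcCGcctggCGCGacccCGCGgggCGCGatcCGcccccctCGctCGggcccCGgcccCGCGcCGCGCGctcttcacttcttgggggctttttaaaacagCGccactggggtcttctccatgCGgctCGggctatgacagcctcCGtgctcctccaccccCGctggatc
HOXB peak: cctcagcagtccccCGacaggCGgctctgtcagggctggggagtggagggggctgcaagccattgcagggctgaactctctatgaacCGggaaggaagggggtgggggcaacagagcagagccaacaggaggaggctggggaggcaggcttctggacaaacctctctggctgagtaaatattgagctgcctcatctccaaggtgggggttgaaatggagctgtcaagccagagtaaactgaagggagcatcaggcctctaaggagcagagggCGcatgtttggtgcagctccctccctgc

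The HOXD10 window lies inside the peak chr2:176116127-176116963, which covers the coding start of the gene. That peak was at 11.3 CPM of ATAC counts in ALDH1A1, 1.07 CPM in AC069277.1, 0.887 CPM in AL356804.1, 0.488 CPM in CECR2, 0.203 CPM in CDH11 and 0 CPM in EGFR. So ATAC at the HOXD10 start was highest in ALDH1A1, where its RNA was 4.27 CPM, and low in AC069277.1, where its RNA was 58.1 CPM. Without doublets it was at 11.7 CPM in ALDH1A1 and 1.08 CPM in AC069277.1. GENCODE v44 lists 3 HOXD10 transcripts, and the start of the coding transcript falls in this peak. The other 2 start upstream at 176108790 and 176108877, near the end of HOXD11, where the nearest peak is that of the HOXD11 start, 1.26 kb and 1.34 kb away. That peak, chr2:176106671-176107534, holds the HOXD11 window and was at 18.0 CPM in AC069277.1, 10.2 CPM in ALDH1A1, 6.62 CPM in CDH11, 3.33 CPM in EGFR, 2.69 CPM in CECR2 and 2.31 CPM in AL356804.1. In the 20% portion it was also highest in AC069277.1, at 19.9 CPM (14.4 to 26.9), an interval that overlapped that of ALDH1A1 at 12.0 CPM (7.70 to 17.9). No peak of the 20% matrix lay within 1000 bp of the HOXD10 start. HOXD10 overlaps HOXD11 on the same strand in GENCODE v44. The sources used here do not give the annotation used for the counting, so reads of the 2 genes may not be fully separate.

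**Figure D3:**
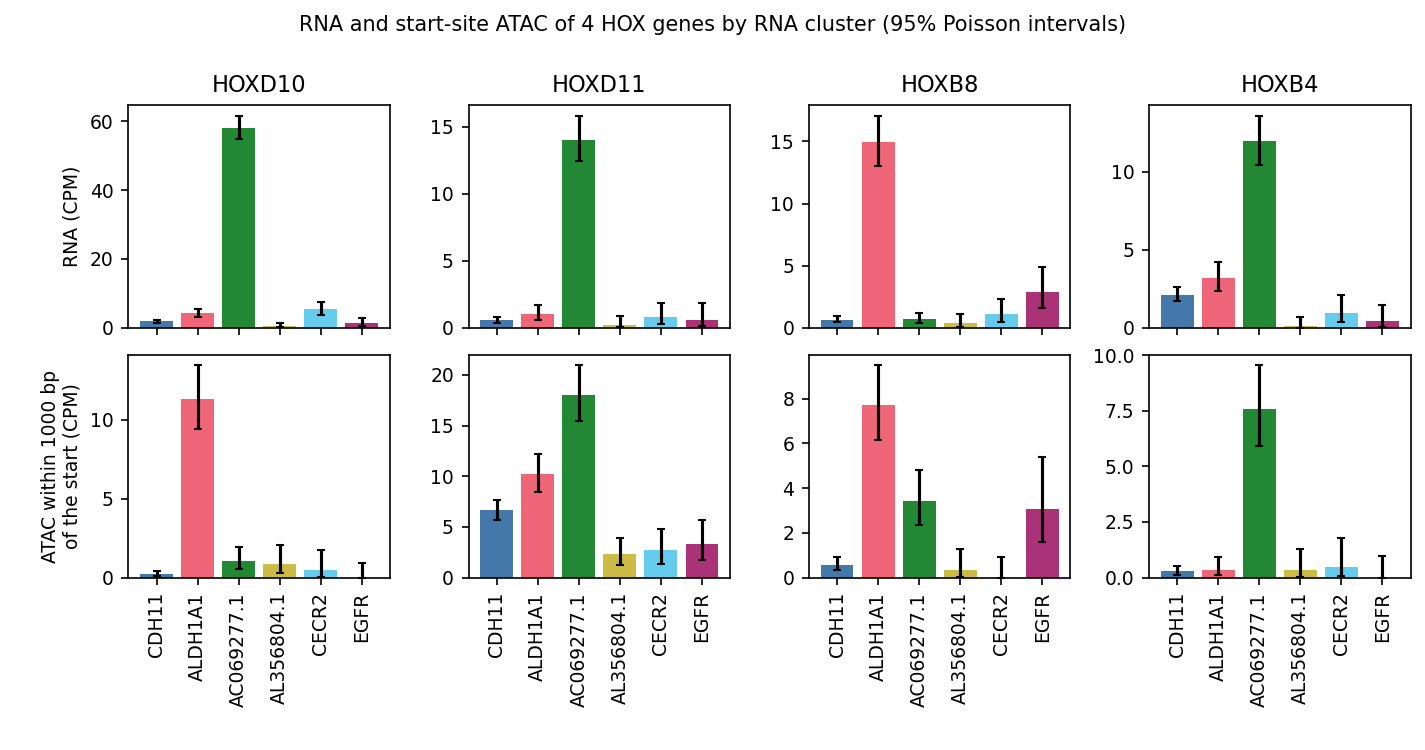
RNA (top, CPM) and ATAC counts in peaks within 1000 bp of the gene start (bottom, CPM) of HOXD10, HOXD11, HOXB8 and HOXB4 in the 6 RNA clusters, with 95% Poisson intervals. The highest cluster is the same in both rows for HOXD11, HOXB8 and HOXB4, while for HOXD10 it is AC069277.1 in RNA and ALDH1A1 in ATAC. Among all HOX genes on with such a peak, it is the same in 8 of 19.

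At HOXB, a run of genes from the anterior HOXB3 to the central HOXB5, HOXB6, HOXB7 and HOXB8, without HOXB4, was highest in ALDH1A1. HOXB7 was at 32.8 CPM (29.98 to 35.9) in ALDH1A1, 23.4 CPM in AC069277.1, 19.3 CPM in EGFR, 4.62 CPM in CDH11, 4.17 CPM in CECR2 and 2.99 CPM in AL356804.1. HOXB6 was at 20.5 CPM (18.3 to 23.0) in ALDH1A1, 6.31 CPM in CDH11, 4.98 CPM in EGFR, 2.98 CPM in AC069277.1, 0.803 CPM in CECR2 and 0.748 CPM in AL356804.1. HOXB3 was at 18.6 CPM (16.5 to 21.0) in ALDH1A1, 6.33 CPM in CDH11, 4.34 CPM in AC069277.1, 2.90 CPM in EGFR, 1.28 CPM in CECR2 and 1.25 CPM in AL356804.1. HOXB7 was thus on in 3 clusters, while HOXB3 and HOXB6 were on in ALDH1A1 and CDH11. HOXB8 was at 15.0 CPM (13.1 to 17.1) in ALDH1A1 and at 0.374 to 2.90 CPM in the others. HOXB5 was at 9.89 CPM (8.35 to 11.6) there and at 0 to 3.06 CPM in the others. The posterior HOXB9 was at 5.08 CPM (3.99 to 6.37) there, an interval that overlapped that of EGFR at 4.15 CPM (2.53 to 6.41). In the 20% portion HOXB9 was instead highest in EGFR, at 10.8 CPM (4.35 to 22.3), against 2.06 CPM (0.562 to 5.28) in ALDH1A1. HOXB4 stood out of this run, since it was highest in AC069277.1 at 12.0 CPM (10.5 to 13.6) and at 0.125 to 3.18 CPM in the others. HOXB3 spans HOXB4 to HOXB6 and HOXB7 overlaps HOXB8 and HOXB9 on the same strand in GENCODE v44, which limits how far their counts can be told apart.

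The start-site chromatin of HOXB4 and HOXB8 had the same highest cluster as their RNA. The peak within 1000 bp of the HOXB4 start was at 7.57 CPM in AC069277.1 and at 0.488 CPM or less in the other 5 clusters. That of HOXB8 was at 7.70 CPM in ALDH1A1, 3.41 CPM in AC069277.1, 3.08 CPM in EGFR and 0.574 CPM or less in CDH11, CECR2 and AL356804.1. HOXB7 had no peak within 1000 bp of its start.

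At HOXC, RNA of the 6 genes that were on was highest in AC069277.1. HOXC9 was at 15.6 CPM (13.9 to 17.5) in AC069277.1, 11.2 CPM (9.60 to 13.1) in ALDH1A1, 7.39 CPM in CECR2, 5.61 CPM in AL356804.1, 5.39 CPM in EGFR and 4.90 CPM in CDH11. HOXC10 was at 12.3 CPM (10.8 to 13.9) in AC069277.1, 3.94 CPM in EGFR, 1.44 CPM in CECR2, 1.35 CPM in ALDH1A1, 1.12 CPM in AL356804.1 and 0.683 CPM in CDH11. HOXC8 was at 9.98 CPM (8.61 to 11.5) in AC069277.1, 5.48 CPM in AL356804.1, 4.66 CPM in CECR2, 4.31 CPM in CDH11, 3.53 CPM in EGFR and 3.05 CPM in ALDH1A1. HOXC8 and HOXC9 were thus spread over the clusters, within 4-fold, while HOXC10 was not. HOXC6 was also spread, with 9.45 CPM (8.13 to 10.9) in AC069277.1 and 4.15 to 6.74 CPM in the others. The posterior HOXC11 was at 6.89 CPM (5.77 to 8.18) in AC069277.1, which overlapped EGFR at 4.15 CPM (2.53 to 6.41), and at 0.609 CPM or less in the other 4 clusters. HOXC13, a posterior gene known from hair and nail, was at 6.69 CPM (5.58 to 7.95) in AC069277.1, above ALDH1A1 at 4.06 CPM (3.10 to 5.23), and at 0.542 to 1.61 CPM in the others. HOXC6 spans HOXC8 and HOXC9 in GENCODE v44, while its start interval in the deposited data, chr12:54015897-54028440, begins beyond the end of both.

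At HOXA, the genes that were on did not all have the same highest cluster. HOXA3, an anterior gene, was at 25.3 CPM (21.0 to 30.2) in EGFR, 18.3 CPM (16.2 to 20.7) in ALDH1A1, 9.16 CPM in CDH11, 4.54 CPM in AC069277.1, 1.87 CPM in AL356804.1 and 1.44 CPM in CECR2. HOXA10, a posterior gene, was at 16.7 CPM (14.9 to 18.6) in AC069277.1, 16.2 CPM (12.8 to 20.2) in EGFR, 12.8 CPM in CECR2, 10.1 CPM in AL356804.1, 7.04 CPM in ALDH1A1 and 1.37 CPM in CDH11. HOXA5 was at 10.2 CPM (8.85 to 11.8) in AC069277.1, 6.57 CPM in ALDH1A1, 5.81 CPM in EGFR, 3.23 CPM in CDH11, 2.87 CPM in AL356804.1 and 2.41 CPM in CECR2. HOXA10 was therefore on in every cluster but CDH11, and its values in AC069277.1, EGFR and CECR2 had overlapping intervals. HOXA13, the most posterior HOXA gene, was highest in CDH11, with 6.17 CPM (5.44 to 6.96) there, 2.98 CPM in ALDH1A1 and 0.207 to 1.98 CPM in the others. HOXA7 was at 5.76 CPM (4.60 to 7.12) in ALDH1A1 and at 0.161 to 1.67 CPM in the others. HOXA3 spans HOXA4, HOXA5 and HOXA6 on the same strand in GENCODE v44. In all, 24 of the 39 genes overlap another gene on the same strand, 22 of them another HOX gene, and 25 overlap a gene on the opposite strand.

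ATAC at the HOXA5 start was at 23.8 CPM in AC069277.1, 22.1 CPM in EGFR and 21.4 CPM in ALDH1A1, the same 3 clusters in which its RNA was on. It was at 2.69 CPM or less in CDH11, AL356804.1 and CECR2.

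Of the 22 genes that were on, 19 had a peak within 1000 bp of the listed start or start interval, and HOXA7, HOXB7 and HOXD9 had none. Where several starts are listed, the interval ran from the first to the last. The interval of HOXA3 was chr7:27119595-27140219 with 6 peaks, which takes in the HOXA4 start. That of HOXC6 was chr12:54015897-54028440 with 3. For HOXB3 it was chr17:48553922-48590272 with 8 peaks, which takes in the HOXB4 start. ATAC values of such genes are thus not those of a single start. In 8 of these 19 genes the cluster with the highest RNA was also the one with the highest ATAC, against 48.2% of all genes on with such a peak. The 8 were HOXA5, HOXB3, HOXB4, HOXB6, HOXB8, HOXB9, HOXC11 and HOXD11. The genes that did not match were HOXA3, HOXA10, HOXA13, HOXB5, HOXC6, HOXC8, HOXC9, HOXC10, HOXC13, HOXD3 and HOXD10. Of these, HOXC6, HOXC8, HOXC9, HOXC10, HOXC13 and HOXD10 were highest in AC069277.1 in RNA and in ALDH1A1 in ATAC. Between these clusters the ATAC intervals overlapped for HOXC6, HOXC8 and HOXC9. Some of these calls rested on clusters with overlapping ATAC intervals. HOXA5 matched at 23.8 CPM (20.8 to 27.1) in AC069277.1 and 22.1 CPM (17.6 to 27.2) in EGFR. HOXB5 did not match, at 9.75 CPM (6.90 to 13.4) in EGFR and 9.56 CPM (7.84 to 11.5) in ALDH1A1. In the 20% portion the 3 peaks of HOXB3 were highest in EGFR, at 36.9 CPM (24.1 to 54.1), against 16.0 CPM (11.0 to 22.6) in ALDH1A1. Over the 6 clusters the Pearson correlation of RNA and ATAC had a median of 0.773 over the 19 genes and of 0.667 over all 13825 genes, as a description of clusters from 1 library. It ran from 0.981 for HOXB9 to -0.00524 for HOXA3, whose peaks include those of the HOXA4 start. Neighbouring genes share peaks, so these genes are not independent.

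Of the 110 peaks, 30 lay at HOXA, 38 at HOXB, 24 at HOXC and 18 at HOXD, and they held 0.0623% of the ATAC counts. At least 1 cluster reached 5 CPM in 80 of them. Of these, 65 (81.2%) differed between clusters by the 4-fold call, against 66.5% of all peaks that reached 5 CPM in a cluster. Peaks in or within 1000 bp of a listed HOX start or start interval differed in 39 of 45 cases and the peaks farther away in 26 of 35. Some start intervals are long, such as chr17:48553922-48590272 for HOXB3. The first group can thus hold peaks more than 1000 bp from any single start. ALDH1A1 was the highest cluster for 37 of the 80 peaks, including 22 of the 28 at HOXB. AC069277.1 was highest for 15, EGFR for 14, CDH11 for 10, AL356804.1 for 3 and CECR2 for 1. How often each cluster was highest over all peaks was not counted, so these counts are not read as particular to the HOX loci. Outside the HOXB interval, chr17 held 8.28% of the ATAC counts of ALDH1A1, the largest such share of any cluster. Its part in the HOXB count was not tested. Summed over all 18 HOXD peaks, ATAC was at 115 CPM (108 to 122) in AC069277.1, 104 CPM in ALDH1A1, 103 CPM in CDH11, 58.2 CPM in AL356804.1, 54.9 CPM in EGFR and 43.2 CPM in CECR2. The log2 ratio of ATAC between the highest and the lowest cluster was thus 1.41 for HOXD, below that of HOXD RNA, and it was 2.09 for HOXB, 1.22 for HOXC and 1.20 for HOXA.

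**Figure D4:**
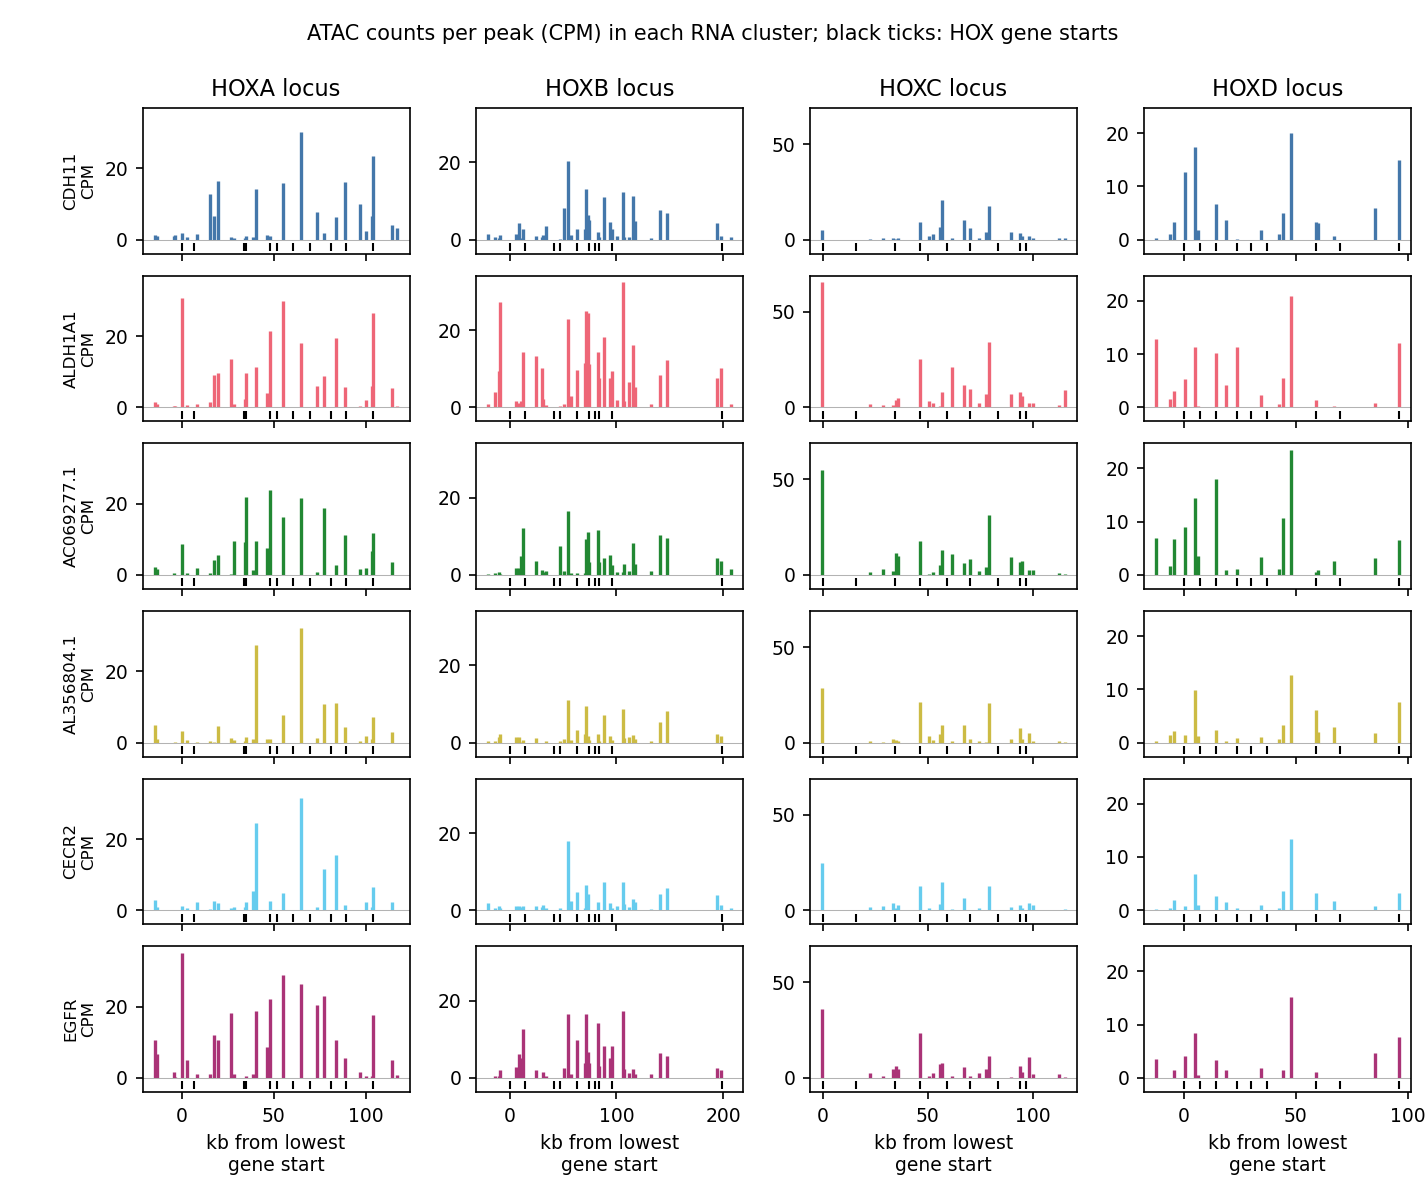
ATAC counts per peak (vertical axis, CPM) along the 4 HOX loci (columns, kb from the lowest gene start) in the 6 RNA clusters (rows), with the centres of the listed gene-start intervals as black ticks. The HOXB column is tallest in ALDH1A1, and several tall peaks, such as 1 near the middle of HOXD, occur in every cluster.

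Among the peaks with the highest level or the largest ratio at each locus, some differed between clusters and some did not. The peak chr17:48521911-48522793, whose middle is printed above, is intergenic and 8.12 kb from the nearest HOX start, that of HOXB1. It was at 27.3 CPM in ALDH1A1 and at 2.13 CPM or less in the other 5 clusters. The peak chr17:48636239-48637255, in an exon of LINC03057, was at 32.4 CPM in ALDH1A1, 17.4 CPM in EGFR and 0.640 CPM in AC069277.1. Both HOXB peaks therefore had their highest level in the cluster with the most HOXB RNA.

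At HOXC the peak chr12:53938200-53939101 at the HOXC13 start was at 65.5 CPM in ALDH1A1, 55.1 CPM in AC069277.1 and 5.20 CPM in CDH11. The peak chr12:53973218-53974092 beside the HOXC11 start was at 11.7 CPM in AC069277.1 and 0.540 CPM in CDH11. The peak chr12:53999814-54000709 at the HOXC9 start was at 21.0 CPM in ALDH1A1, 10.9 CPM in AC069277.1 and 1.06 CPM or less in the others. CDH11 was the lowest cluster for these 3 peaks and for HOXC RNA, but not throughout the locus. Summed over all 24 HOXC peaks, ATAC was at 103 CPM (99.1 to 106) in CDH11 and 103 CPM (93.0 to 113) in CECR2. This sum was highest in ALDH1A1 at 239 CPM (230 to 248). It was 214 CPM (205 to 224) in AC069277.1, the cluster with the most HOXC RNA. The peaks near the HOXC9 starts together were at 27.6 CPM in CDH11 and 14.6 CPM in AL356804.1. The peak chr12:54017603-54018532, in introns of HOXC4 and HOXC6, was at 34.3 CPM in ALDH1A1 and 11.5 CPM in EGFR and did not differ by the 4-fold call.

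At HOXA the peak chr7:27122072-27122990, in the HOXA3 untranslated region and an exon of HOXA-AS2, was at 18.2 CPM in EGFR, 13.5 CPM in ALDH1A1 and 1.24 CPM or less in the others. EGFR and ALDH1A1 were also the clusters with the most HOXA3 RNA. The 6 peaks of the HOXA3 start interval together were instead highest in AC069277.1 at 51.6 CPM, where HOXA3 RNA was at 4.54 CPM. They include the 2 peaks of the HOXA4 start, which lies in this interval. Those 2 peaks were at 31.0 CPM in AC069277.1, 11.8 CPM in ALDH1A1 and 0.513 CPM in EGFR, so the sum is not that of HOXA3 starts alone. RNA of HOXA-AS2 was highest in CDH11, at 12.9 CPM. The intergenic peak chr7:27160527-27161434 was at 18.1 CPM to 32.3 CPM in the 6 clusters and did not differ. At HOXD the peak chr2:176079841-176080602, in an exon of the neighbouring homeobox gene EVX2, was at 12.7 CPM in ALDH1A1, 6.93 CPM in AC069277.1 and 0.244 CPM in CECR2. The peak chr2:176140327-176141249, in an intron of HOXD3, was at 12.6 CPM to 23.5 CPM and did not differ.

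RefSeq promoter windows of 300 bases were given for 20 of the 39 genes, 27 windows in all. Those without one included HOXA5, HOXB2 to HOXB9, HOXB13, HOXC6, HOXC8 to HOXC13 and HOXD9. The 27 windows held a median of 22 CpG dinucleotides, against 14 in all 35116 windows of the table. A peak overlapped 14 of the 27 windows (51.9%), against 55.9% of all windows. The letters CCAAT were found on either strand in 18 of 27 windows (66.7%) and in 34.6% of all windows. They stood in 7 of the 14 windows of genes that were on and in 11 of the 13 of genes that were not. HOXA3 alone gave several of the 14 windows, and among its windows CCAAT stood only in chr7:27152534-27152833. These shares therefore count windows and do not compare genes. TATAAA was found in 18.5% of the HOX windows and 11.5% of all, TGATNNAT, the letters of a joint HOX and PBX site, in 11.1% and 7.40%, TGACAG, those of a MEIS site, in 14.8% and 15.8%, and TAATTA, those of a homeodomain site, in 7.41% and 4.84%. HOXC4 and HOXC5 have the same window in the table, which is counted for both, and a match of letters is not a bound site.

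Of the other 30 genes in the intervals, mostly antisense and noncoding, 7 were on, against 40% of all genes, and 6 of these differed between clusters, against 35.5% of all genes on. At HOXB, AC103702.2 was at 38.1 CPM (35.0 to 41.4) in ALDH1A1 and 2.37 to 17.6 CPM in the others, and LINC02086 at 13.5 CPM (11.7 to 15.5) and 0 to 3.91 CPM. HOXB-AS1 was at 6.50 CPM and HOXB-AS3 at 5.15 CPM in ALDH1A1, and both were at 1.66 CPM or less in the others. These 4 noncoding HOXB genes, named because they differed by the 4-fold call, were thus highest in the cluster with the most HOXB RNA. Another gene of the HOXB interval, AC103702.1, was below 5 CPM in every cluster, with 3.01 CPM in CDH11 and 2.91 CPM in ALDH1A1. HOXB-AS1 and HOXB-AS3 overlap HOXB genes on the opposite strand in GENCODE v44. The strand setting of the counting is not given, so their reads may not be fully separate from those of the genes they overlap. At HOXA, HOTAIRM1 was at 31.3 CPM (26.5 to 36.7) in EGFR, 13 CPM in ALDH1A1 and 0.623 CPM in AL356804.1.

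PBX, MEIS and PKNOX proteins are the cofactors with which HOX proteins bind DNA. Of the 9, 8 were on and 3 differed between clusters, against 35.5% of all genes on. MEIS3 was at 38.2 CPM (35.5 to 41.1) in AC069277.1, 24.5 CPM in ALDH1A1 and 2.21 CPM in CDH11. PBX4 was at 28.8 CPM in AL356804.1 and 6.50 CPM in ALDH1A1. The cofactors did not share a highest cluster. MEIS3 RNA was highest in the 2 clusters with the most HOX RNA, while PBX4 was highest in AL356804.1, which was 1 of the 2 clusters with the least. A link between cofactor and HOX levels was not tested.

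Polycomb and trithorax proteins are known to repress and to maintain HOX genes, respectively. Of 21 Polycomb genes 20 were on and 3 differed, against 35.5% of all genes on, with the PRC1 subunits PHC2 highest in CDH11 (76.3 CPM, against 14.2 CPM in AC069277.1), BMI1 in AC069277.1 (59.2 CPM, against 13.2 CPM in CDH11) and PCGF5 in ALDH1A1 (83.0 CPM, against 19.9 CPM in AL356804.1). Of 13 trithorax and H3K27 demethylase genes all 13 were on and 1 differed, against the same 35.5%, the demethylase KDM6B, with 30.1 CPM in EGFR and 5.75 CPM in CDH11. None of the 6 genes of CTCF and cohesin, which shape loops at these loci, differed, against the same 35.5%, and all 6 were on. Links of these genes to HOX levels were not tested.

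Retinoic acid is a known inducer of HOX genes. Of 13 genes of the retinoid pathway 10 were on and 5 differed, against 35.5% of all genes on. RARB, a retinoic acid receptor, was at 61.6 CPM (57.7 to 65.8) in ALDH1A1, the cluster led by the retinaldehyde dehydrogenase gene ALDH1A1, and at 0.830 to 4.49 CPM in the others. CYP26B1, which degrades retinoic acid, was at 11.4 CPM in ALDH1A1 and 1.24 CPM in EGFR. The synthesis gene ALDH1A3 was at 57.5 CPM in EGFR and 6.11 CPM in AC069277.1, and ALDH1A2 at 11.9 CPM in CECR2 and 1.72 CPM in AC069277.1. CRABP2, a retinoic acid carrier, was at 111 CPM in AL356804.1 and 12.8 CPM in ALDH1A1. A link between retinoid genes and HOX levels was not tested. None of the 6 ParaHox and CDX genes was on.

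In the 20% portion, whose nuclei were placed in the same 6 clusters by correlation, 19 of the 22 genes had the same highest cluster as in the 80% portion. The smallest cluster there held 55 nuclei, and the smallest sum was 646439 UMIs. HOXB8 was at 16.5 CPM (11.3 to 23.3) in ALDH1A1 and 0 to 4.64 CPM in the others. The 3 genes whose highest cluster changed were HOXA3, HOXA10 and HOXB9. HOXA3 was at 17.0 CPM in both ALDH1A1 and EGFR. HOXA10 was at 16.2 CPM (8.62 to 27.7) in CECR2, 15.5 CPM in EGFR and 13.5 CPM (9.76 to 18.2) in AC069277.1, with overlapping intervals, and HOXB9 is given above. HOXB7 was at 29.9 CPM in ALDH1A1, 27.8 CPM in EGFR and 26.0 CPM in AC069277.1, with overlapping intervals. The 20% portion holds other GEMs of the same mixture by design, so it repeats the libraries and not the cultures. The 159 barcodes that occurred in both portions were kept in the 20% values, and whether they stand for the same nuclei was not tested.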

How the data were processed

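RNA and ATAC were read from the same nuclei, with 1 library of each per portion. The authors deposited UMI counts per gene and counts per ATAC peak, without normalization, in 1 matrix per portion. Cell Ranger ARC 2.0.0 and hg38 are named in the submitters' processing notes and methods. The gene annotation, strand setting and whether an ATAC count is a fragment or a fragment end are not given in the sources used here, and counts of ends would make the ATAC intervals too narrow. A long-read library of the 20% portion was not used here. No columns were left without a sample (0).

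Nuclei were clustered in Seurat 5.3.0 (R 4.3.3) on 30 principal components of 2000 variable genes, after 69 gene rows in the HOX intervals were left out, with 20 neighbours, at the lowest resolution (0.06) with at least 6 clusters of 1% or more. Of 5 other random seeds, 4 gave 6 clusters, and the adjusted Rand index with the main clusters was at least 0.964. Scrublet (scanpy 1.11.5) called 385 nuclei doublets, which were kept unless stated. UMIs were summed per cluster with scipy 1.17.1. No nucleus was removed. Alternatives are given in the closing section. The calls and the clustering were tested on simulated data. Peaks were annotated with GENCODE v44 on hg38.

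The members, gene lists and calls were chosen with earlier results of these data known. The text names every HOX gene that is on, in full for the 3 highest per locus, the 2 peaks per locus with the largest level and the 2 with the largest ratio, and at most 5 differing genes per list. The 20% values of HOXA3, HOXA10, HOXB7, HOXB8 and HOXB9 were chosen after their values were seen. Some items that the rule would name are not reported here.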

Additional observations from a re-analysis of the deposited data

How the results depend on the processing

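Of 79 values recomputed under other settings, 69 stayed within their counting error or within 1.5 times the main count. With doublets removed the log2 ratio of the highest to the lowest cluster moved to 4.73 for HOXB, 2.19 for HOXC and 5.52 for HOXD RNA. In the 20% matrix it was 2.46 for HOXA, above HOXC at 2.01, and 4.48 for HOXB. With clusters made from ATAC it was 1.87 for HOXC, and with a mean over nuclei in place of a sum 5.00 for HOXD. At 10 CPM in place of 5, 12 HOX genes were on, 11 of them differed, and 37 peaks differed, since fewer genes and peaks pass. Over all 36601 genes, 12582 were on at 10 CPM and 3945 of these differed. The 37 peaks were out of 49 HOX peaks at 10 CPM or more, against 27730 of 48196 over all peaks. For the other settings the cause was not tested. No locus sum changed direction, since the ratio is highest over lowest by construction. No paired analysis was possible because there was 1 library per group. The floor of 3 counts was 0.0706 CPM in CDH11 and 0.622 CPM in EGFR, so low HOX levels are least well measured in the small clusters.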
